A study of Mus musculus with 12 samples.

Results

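The transcripts described here are those of the adult globins and of the erythroid enzyme of heme synthesis in mouse dorsal skin. They are 5 genes of the 55401 in the deposited tables, taken by symbol: the alpha-globin genes Hba-a1 and Hba-a2, the beta-globin genes Hbb-bs and Hbb-bt, and Alas2. All were found in both tables, and all passed the filter on low values, which was at least 1 FPKM (fragments per length of transcript, scaled to the library's mapped fragments) in at least 3 of the libraries compared. Skin of C57BL/6J mice on day 29 was sequenced in 12 libraries, 3 from each of 4 groups. The groups were mice given both chronic restraint stress and imiquimod (CRS+IMQ), imiquimod alone (IMQ), chronic restraint stress alone (CRS), and untreated mice (Ctrl). Imiquimod is a Toll-like receptor agonist that gives mice a psoriasis-like inflammation, and the study asked how stress bears on that disease. No transgene or mutant allele was named for any group, and the labels used here gave neither age nor dose.

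Hemoglobin is a tetramer of alpha and beta chains, each of which holds a heme. Erythroid precursors in marrow and spleen make its RNA and keep part of it as they become reticulocytes, while mature red cells lack a nucleus. ALAS2 catalyses the first step of heme synthesis in the erythroid lineage, and other tissues use ALAS1 for that step. Whole skin holds blood in its vessels, and with it the globin RNA of reticulocytes. In bulk tissue more cells of a type cannot be told apart from more RNA per cell.

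Hba-a1 (ENSMUSG00000069919) lies on chromosome 11 of GRCm38 (mm10) at 32283511 to 32284465, plus strand, and Hba-a2 (ENSMUSG00000069917) at 32296489 to 32297298 on the same strand. Hbb-bs (ENSMUSG00000052305) lies on chromosome 7 at 103826534 to 103828096 and Hbb-bt (ENSMUSG00000073940) at 103812524 to 103813996, both on the minus strand. Alas2 (ENSMUSG00000025270) lies on chromosome X at 150547375 to 150570638, plus strand. In GENCODE M21 each globin gene has 3 exons and the longest Alas2 transcript has 11.

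The paralogs share much of their sequence, so the value of each single globin gene is uncertain. Counted from the first base of the start codon, Hba-a1 and Hba-a2 differed at 1 of 429 coding bases (C381T, the base of Hba-a1 first). Hbb-bs and Hbb-bt differed at 1 of 444 coding bases (C417T, the base of Hbb-bs first). Of all windows of 100 bases in the longest transcript, 56.5% of those of Hba-a1 also occurred in Hba-a2, and 74.5% the other way. For Hbb-bs in Hbb-bt it was 62.6%, and 54.8% the other way. The remaining windows were not found in the paralog. The 60 coding bases around each difference are shown from GENCODE M21 (GRCm38), read 5′ to 3′ on the coding strand, with the differing base in capitals. They lie at chr11:32284313-32284372, chr11:32297130-32297189, chr7:103826665-103826724 and chr7:103812656-103812715, each within 1 exon.
Hba-a1: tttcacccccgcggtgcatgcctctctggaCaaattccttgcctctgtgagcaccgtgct
Hba-a2: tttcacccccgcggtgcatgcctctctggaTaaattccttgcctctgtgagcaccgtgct
Hbb-bs: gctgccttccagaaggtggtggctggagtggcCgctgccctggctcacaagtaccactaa
Hbb-bt: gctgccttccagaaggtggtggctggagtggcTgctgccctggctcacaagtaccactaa

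The promoters are shown as background. The 5 transcripts moved together across libraries, and a part of the promoters in this was not tested. Each line gives the 120 bases before the RefSeq transcription start (GRCm38.p6), read 5′ to 3′ on the gene's strand. They lie at chr11:32283552-32283671, chr11:32296372-32296491, chr7:103827929-103828048, chr7:103813924-103814043 and chrX:150547297-150547416. Capitals mark CCAAT (the CCAAT box), CACCC (the CACCC box), ATATAA (of the TATA box type) and a GATA word, on either strand. A GATA word is GATA with A or T before it and A or G after it.
Hba-a1: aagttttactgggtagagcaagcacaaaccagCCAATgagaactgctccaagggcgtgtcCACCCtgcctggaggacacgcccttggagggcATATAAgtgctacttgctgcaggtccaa
Hba-a2: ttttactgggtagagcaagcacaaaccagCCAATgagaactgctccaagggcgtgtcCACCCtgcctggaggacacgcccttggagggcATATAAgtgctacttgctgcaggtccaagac
Hbb-bs: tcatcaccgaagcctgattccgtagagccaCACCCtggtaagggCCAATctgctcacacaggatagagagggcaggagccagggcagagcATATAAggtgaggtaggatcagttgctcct
Hbb-bt: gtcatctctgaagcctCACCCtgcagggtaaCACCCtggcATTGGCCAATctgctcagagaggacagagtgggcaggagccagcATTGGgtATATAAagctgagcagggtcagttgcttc
Alas2: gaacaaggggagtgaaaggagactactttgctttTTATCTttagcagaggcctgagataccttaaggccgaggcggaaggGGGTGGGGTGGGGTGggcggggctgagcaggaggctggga

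Within the 250 bases before the start, all 4 globin promoters held the CCAAT box, the CACCC box and ATATAA, the last of these between 28 and 31 bases upstream. The Alas2 promoter held 3 copies of the CACCC box and 1 GATA word, all on the minus strand, with neither the CCAAT box nor ATATAA. The promoters of Hba-a1, Hba-a2, Hbb-bs and Alas2 held a GATA word. In 32536 mouse promoters of that length, 33.8% held CCAAT, 52.1% CACCC, 9.09% ATATAA and 26.5% a GATA word. These are matches of letters only. The promoters of Hba-a1 and Hba-a2 were identical over the 247 bases that could be aligned, and those of Hbb-bs and Hbb-bt were identical at 178 of 243.

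All 5 transcripts stood in the same order of group means, with CRS+IMQ highest, IMQ next, then CRS, and Ctrl lowest. Every CRS+IMQ library lay above every library of the other groups for each member. The order held for the summed globins, which took 0.715% ± 0.0267 of all FPKM in CRS+IMQ, 0.352% ± 0.149 in IMQ, 0.185% ± 0.016 in CRS and 0.120% ± 0.0427 in Ctrl (SD, n = 3 each).

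Hba-a1, whose protein is the alpha chain of adult hemoglobin, had 821, 796 and 766 FPKM in the CRS+IMQ libraries, 536, 191 and 414 in IMQ, 217, 207 and 238 in CRS, and 168, 89.4 and 166 in Ctrl. Both stressed groups were narrow, whereas IMQ spread widely and its replicate 2 fell below every CRS library. Hba-a2, the second copy of the alpha gene, had 789, 696 and 735 FPKM in CRS+IMQ, 520, 192 and 375 in IMQ, 204, 201 and 237 in CRS, and 157, 75.5 and 157 in Ctrl. Its IMQ replicate 2 again fell below CRS, and replicate 2 was the lowest library of Ctrl as well. Hba-a2 read at 0.844 to 1 times Hba-a1 over the 12 libraries.

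Hbb-bs, one of the adult beta-chain genes, had 949, 911 and 883 FPKM in CRS+IMQ, 649, 241 and 502 in IMQ, 225, 219 and 253 in CRS, and 154, 76.1 and 176 in Ctrl. In this gene too IMQ replicate 2 lay inside the range of CRS. Hbb-bt, its neighbour, was the lowest of the globins, with 471, 440 and 440 FPKM in CRS+IMQ, 327, 105 and 234 in IMQ, 88.1, 90.2 and 108 in CRS, and 60.4, 33.2 and 76.6 in Ctrl. Its IMQ replicate 2 fell just under CRS replicate 3, and Ctrl stayed below CRS throughout.

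Alas2, the erythroid start of heme synthesis, was far less abundant per length than the globins. It had 12.8, 12.1 and 12.2 FPKM in CRS+IMQ, 6.96, 3.27 and 5.34 in IMQ, 2.77, 2.59 and 3.05 in CRS, and 1.92, 0.918 and 2.43 in Ctrl. Here no 2 groups overlapped, and replicate 2 was again the lowest library of IMQ and of Ctrl.

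**Figure D1:**
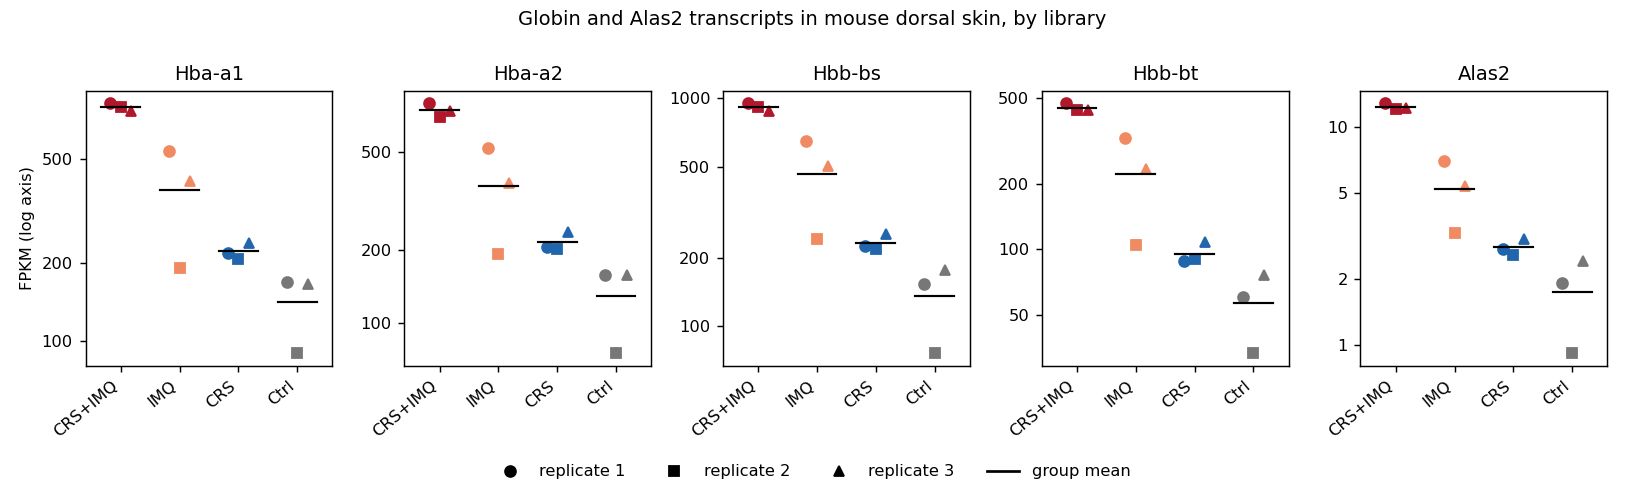
FPKM of the 5 members (log axis, a scale for each panel) in each library, by group, with the group mean as a bar; replicate numbers have their own symbols. The CRS+IMQ libraries sit highest in every panel, for Hba-a1 at 766 to 821 FPKM, and replicate 2 is the lowest library of IMQ and of Ctrl.

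The spread between libraries was unequal between groups. The coefficient of variation of the members was 3.17% to 6.3% in CRS+IMQ, 35.7% to 50.1% in IMQ, 7.17% to 11.3% in CRS and 31.7% to 43.8% in Ctrl. Over 11151 genes the median was 5.5% in CRS+IMQ, 14.14% in IMQ, 6.41% in CRS and 12.45% in Ctrl. Estimated depth was 19.2 to 21.15 M fragments over all libraries, and IMQ replicate 2 and Ctrl replicate 2, the lowest in the members, both came to 20.8 M. IMQ replicate 3 was the middle library of its group for 67.8% of genes. Separate mice for the libraries of a group are not stated in the labels, so p-values measure the spread between these libraries, which may be technical. With 3 libraries against 3 an exact test cannot go below p = 0.1, and the adjusted p-values below rest on limma's variance model.

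Restraint stress with imiquimod, set against imiquimod alone, is the comparison on which the study's question turns. All 5 members were higher in CRS+IMQ, by 1.97 to 2.38 times in mean FPKM, and 3 of them rose past the threshold of an adjusted p of 0.05 (limma, Benjamini-Hochberg over 13981 genes). In the same comparison 18.7% of all genes tested were called higher. All 5 had no overlap between the groups, which held for 24.7% of all genes in that direction. Their median log2 change was 1.16, against -0.07 over all genes tested.

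Alas2 averaged 12.4 ± 0.391 FPKM in CRS+IMQ and 5.19 ± 1.85 FPKM in IMQ (SD, n = 3 each), a log2 change of FPKM + 1 of 1.16 (SE 0.224, limma adjusted p = 0.00974). Hba-a1 rose by 1.19 (SE 0.369, limma adjusted p = 0.0493) and Hba-a2 by 1.14 (SE 0.352, limma adjusted p = 0.0479). Hbb-bs, at 1.09 (SE 0.354, limma adjusted p = 0.056), and Hbb-bt, at 1.16 (SE 0.397, limma adjusted p = 0.0653), had changes of like size and did not pass. With the paralogs summed before the fit, alpha globin had a log2 change of 1.17 (limma adjusted p = 0.0485) and beta globin 1.12 (limma adjusted p = 0.0591).

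The globin calls in CRS+IMQ against IMQ lay close to the threshold and depended on which libraries were fitted. Without CRS+IMQ replicate 1, 2 or 3, or without IMQ replicate 3, Alas2 alone was called, while all 5 members passed without IMQ replicate 1 or without IMQ replicate 2. The adjusted p of Hba-a1 over these left-out libraries ran between 0.00634 and 0.133 (limma), and its log2 change between 0.75 and 1.5. In the authors' deposited table all 5 members had a q under 0.05 for CRS+IMQ against IMQ, with fold changes of 1.97 to 2.38. That deposited table of the authors marked 4 of them as significant and left out Hbb-bs, whose fold there was 1.97.

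Restraint stress without imiquimod gave smaller differences. Each member was higher in CRS than in Ctrl, by 1.56 to 1.72 times in mean FPKM, and 0 of 5 passed (limma, adjusted over 13944 genes), while 4 had an unadjusted p under 0.05. Of all genes tested, 15.3% were called higher in CRS. The libraries of CRS lay above those of Ctrl for all 5 members, as they did for 22.2% of all genes. Hbb-bs averaged 232 ± 18.2 FPKM in CRS and 135 ± 52.6 FPKM in Ctrl (SD, n = 3 each), with a log2 change of 0.86 (SE 0.314, limma adjusted p = 0.068). For Hba-a1 the log2 change was 0.70 (limma adjusted p = 0.0705), for Hba-a2 0.79 (0.0741), for Hbb-bt 0.81 (0.07) and for Alas2 0.51 (0.103). The median of the members was 0.79, against -0.09 over all genes.

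The outcome in CRS against Ctrl depended on the scaling of the libraries. After quantile normalization the 4 globins were called, with limma adjusted p-values of 0.0284 to 0.0355, and after median-ratio scaling Hba-a1 alone was called. Without Ctrl replicate 3, 3 members passed, namely Hbb-bs, Hbb-bt and Alas2. In the authors' deposited table the 4 globins had a q between 0.00386 and 0.00585 and Alas2 a q of 0.0844. None of the 5 was marked significant in that deposited table of the authors, where the folds were 1.56 to 1.72.

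Imiquimod was compared with no treatment across the deposited tables, as Ctrl and CRS stood in the first and IMQ and CRS+IMQ in the second. In such comparisons imiquimod and the table cannot be told apart. In IMQ against Ctrl 3 members rose: Hbb-bs by 1.74 (SE 0.453, limma adjusted p = 0.0393), Hbb-bt by 1.89 (SE 0.472, limma adjusted p = 0.0351) and Alas2 by 1.16 (SE 0.295, limma adjusted p = 0.0364). Of all genes tested 6.11% were called higher there. Hba-a1 at 1.36 (limma adjusted p = 0.0717) and Hba-a2 at 1.44 (limma adjusted p = 0.0638) did not pass. The groups were apart for all 5 members, against 19.2% of all genes. These calls too rested on single libraries, since no member passed without IMQ replicate 1 or 3 or without Ctrl replicate 1 or 2, 1 passed without Ctrl replicate 3, and 5 passed without IMQ replicate 2.

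In CRS+IMQ against CRS all 5 members rose, where 35.0% of all genes were called higher. The log2 changes were 1.79 for Hba-a2 to 2.23 for Hbb-bt, with limma adjusted p-values of 1.96e-06 to 7.58e-06. The mean of Hbb-bt was 4.72 times as high in CRS+IMQ as in CRS, and that of Alas2 4.40 times. No library of the groups overlapped, which 38.8% of all genes shared. In this pair both groups had narrow replicates. With each stressed group averaged to 1 sample the log2 changes were the same, but the pair had no spread of its own. That fit took its spread from IMQ and Ctrl, which lie outside the pair, so it does not measure the spread of CRS+IMQ and CRS.

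CRS+IMQ against Ctrl spans both treatments, and all 5 members rose there, beside 17.6% of all genes. Hbb-bt was 7.94 times as high in CRS+IMQ as in Ctrl (log2 change 3.05, SE 0.295, limma adjusted p = 0.000642), Alas2 7.04 times (2.32, SE 0.211, limma adjusted p = 0.000507) and Hba-a1 5.63 times (2.54, SE 0.257, limma adjusted p = 0.000748). The groups did not overlap for any member, as for 25.1% of all genes. With the stressed group as 1 sample the log2 changes were the same, and that fit took its spread from Ctrl alone.

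Stress alone and imiquimod alone did not differ past the threshold for any member. The log2 change of CRS against IMQ ran between -1.07 for Hbb-bt (SE 0.4, limma adjusted p = 0.129) and -0.64 for Hba-a2 (SE 0.352, limma adjusted p = 0.261), and 3 members had an unadjusted p under 0.05. In this comparison 10.7% of all genes were called lower. Only Alas2 was lower in every CRS library than in every IMQ library, at 2.59 to 3.05 against 3.27 to 6.96 FPKM, and 26.8% of all genes were apart that way. Without IMQ replicate 2 all 5 members were called lower in CRS.

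Whether stress changed the members differently with and without imiquimod was tested as an interaction over the 12 libraries. None of the 5 passed (limma), none had an unadjusted p under 0.05, and 28.1% of all genes were called in the higher direction. The difference of log2 changes, CRS+IMQ minus IMQ less CRS minus Ctrl, was 0.65 for Alas2 (95% interval -0.08 to 1.38, limma adjusted p = 0.129). For Hba-a1 it was 0.49 (-0.58 to 1.56), for Hba-a2 0.35 (-0.74 to 1.44), for Hbb-bs 0.23 (-0.89 to 1.36) and for Hbb-bt 0.35 (-0.84 to 1.53). Intervals this wide hold both no difference and a further doubling. Alas2 passed without IMQ replicate 1 (0.85, limma adjusted p = 0.041) or without Ctrl replicate 2 (0.89, limma adjusted p = 0.0297).

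**Figure D2:**
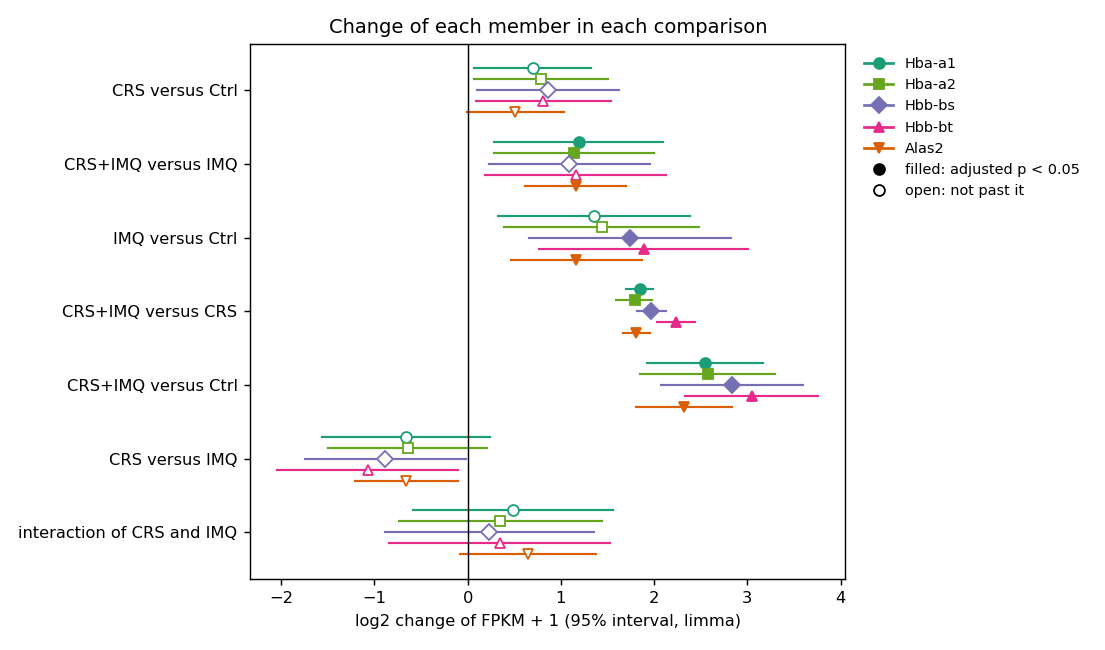
Log2 change of FPKM + 1 of each member in each comparison, first-named group over the second, with 95% intervals from limma; filled symbols have an adjusted p under 0.05. The 5 members lie close together within each comparison, from 1.09 to 1.19 in CRS+IMQ versus IMQ, and all intervals of the interaction include 0.

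The proportions among the globins differed between libraries with and without imiquimod, and so between the deposited tables. Alpha over beta globin, from summed FPKM, was 1.13, 1.10 and 1.13 in CRS+IMQ, 1.08, 1.10 and 1.07 in IMQ, 1.34, 1.32 and 1.32 in CRS, and 1.51, 1.51 and 1.28 in Ctrl. Every library of the imiquimod groups was thus lower than every library without imiquimod. Hbb-bt over Hbb-bs was 0.497, 0.483 and 0.498 in CRS+IMQ, 0.504, 0.438 and 0.466 in IMQ, 0.391, 0.412 and 0.426 in CRS, and 0.393, 0.436 and 0.434 in Ctrl. This ratio was higher with imiquimod, although the nearest libraries, IMQ replicate 2 and Ctrl replicate 2, almost met. Neither ratio was tested, and the split coincides with the deposited tables.

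Alas2 kept pace with the globins. Per 1000 FPKM of summed globin there were 4.26 ± 0.0523 FPKM of Alas2 in CRS+IMQ, 3.81 ± 0.594 in IMQ, 3.68 ± 0.0836 in CRS and 3.71 ± 0.452 in Ctrl (SD, n = 3 each). The CRS+IMQ values, 4.23 to 4.32, lay inside the range of IMQ, 3.43 to 4.49, and above all libraries of CRS and Ctrl, 3.35 to 4.21. Over the 12 libraries the Pearson correlations of log2 values between members were 0.988 to 0.998 over the 10 pairs, and 0.964 to 0.991 on deviations from the group means. These are descriptions over libraries that share groups and, for the paralogs, sequence.

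**Figure D3:**
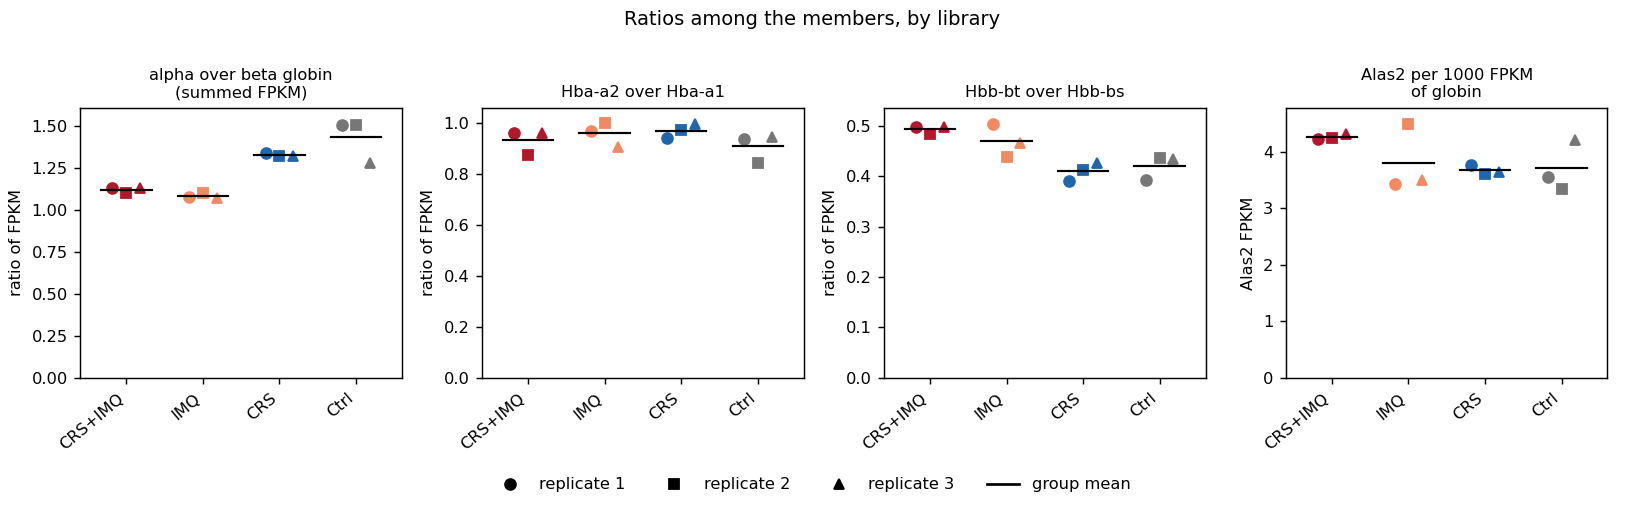
Ratios of FPKM among the members in each library, by group, with the group mean as a bar. Alpha over beta globin is 1.07 to 1.13 in the imiquimod groups and 1.28 to 1.51 in CRS and Ctrl, while Hba-a2 over Hba-a1 overlaps between all groups and Alas2 per 1000 FPKM of globin is 4.23 to 4.32 in CRS+IMQ, within the range of IMQ.

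The other enzymes of heme synthesis, which all tissues use, did not rise with Alas2. Of 8 in CRS+IMQ against IMQ, 4 fell and 0 rose, where 18.2% of all genes tested were called lower, and the median log2 change was -0.38. Alad, the second enzyme of the pathway, averaged 8.83 ± 0.751 FPKM in CRS+IMQ and 24.6 ± 4.88 in IMQ (SD, n = 3 each; log2 change -1.37, limma adjusted p = 0.0011). Ppox fell by 0.62 (limma adjusted p = 0.0136), Urod by 0.45 (0.011) and Uros by 0.30 (0.0384). The last 3 calls were lost under some alternatives, where the adjusted p reached 0.0605 for Ppox, 0.0558 for Urod and 0.141 for Uros. Alas1, the first enzyme outside the erythroid lineage, had a log2 change of 0.29 (limma adjusted p = 0.177), Cpox -0.08 (0.471) and Fech, which inserts the iron, -0.06 (0.86). Without imiquimod, in CRS against Ctrl, Cpox fell by 0.56 (limma adjusted p = 0.00252), the other 7 did not pass, and the median was 0.04; 28.4% of all genes were called lower there. Fech had 0.26 there (limma adjusted p = 0.148).

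Other globins did not follow the members. The embryonic genes Hbb-bh1, Hbb-bh2 and Hba-x were listed at 0 in all 12 libraries, and Hbb-y, Hbq1a, Hbq1b and neuroglobin (Ngb) stayed under 1 FPKM. Myoglobin (Mb), the oxygen store of muscle, had 132, 210 and 209 FPKM in CRS+IMQ, 1004, 556 and 825 in IMQ, 651, 636 and 704 in CRS, and 133, 194 and 243 in Ctrl. It was thus low where the globins were highest: it fell by 2.10 in CRS+IMQ against IMQ (limma adjusted p = 0.00229) and rose by 1.84 in CRS against Ctrl (limma adjusted p = 0.00156). Cytoglobin (Cygb), of fibroblasts, rose by 0.58 in CRS+IMQ against IMQ (limma adjusted p = 0.00261) and had -0.28 in CRS against Ctrl (0.179).

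Markers of the red cell itself were mostly at the edge of detection. Of 16 genes of the red cell membrane and its skeleton 12 stayed under 1 FPKM in every library. Slc4a1, the anion exchanger band 3, had 0.601, 0.527 and 0.529 FPKM in CRS+IMQ, 0.292, 0.0397 and 0.135 in IMQ, 0.133, 0.132 and 0.118 in CRS, and was listed at 0 in all 3 Ctrl libraries. It was highest in CRS+IMQ, without overlap with the other groups, and it was picked out after its values were seen. In a fit with no filter on low values Slc4a1 had a log2 change of 0.43 (limma adjusted p = 0.0328) in CRS+IMQ against IMQ, a scale on which changes of such low genes are understated.

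The membrane genes that passed the filter are also used outside red cells and went another way. In CRS+IMQ against IMQ 2 of 4 tested fell and 0 rose: the ankyrin gene Ank1 by 0.87 (limma adjusted p = 0.0275) and the spectrin gene Sptb by 0.51 (0.00584), while Gypc had 0.33 (0.0846). Of all genes 18.2% were called lower there. In CRS against Ctrl Sptb rose by 1.09 (limma adjusted p = 0.02), Gypc fell by 0.56 (0.012), and Epb41 had -0.47 (0.224). With other settings or a library left out the adjusted p of Ank1 in CRS+IMQ against IMQ ran up to 0.0934, and that of Sptb up to 0.0864 there and 0.0648 in CRS against Ctrl. For Gypc in CRS against Ctrl it ran up to 0.0548.

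Among erythroid transcription factors Gata1, Klf1 and Gfi1b stayed under 1 FPKM in all 12 libraries. For CRS+IMQ against IMQ 5 of 8 could be tested, of which 2 rose and 1 fell, where 18.7% of all genes were called higher and 18.2% lower. The 2 that rose, Nfe2 and Tal1, reached 1 FPKM only in CRS+IMQ libraries. They passed the filter through that group alone and could be tested only as higher in it. Nfe2, which platelets and neutrophils also express, had 1.32, 1.71 and 1.21 FPKM in CRS+IMQ and 0.0860, 0.185 and 0.0784 in IMQ (log2 change 1.11, limma adjusted p = 0.000578). Its CRS+IMQ libraries stood clear of IMQ. Tal1, also a gene of endothelium, rose by 0.47 (limma adjusted p = 0.0234), and Bcl11a, a repressor of embryonic globins, fell by 0.80 (0.0268). Under other settings the adjusted p ran up to 0.0515 for Tal1 and 0.092 for Bcl11a. Of 3 tested in CRS against Ctrl 0 passed: Lmo2 had -0.85 (limma adjusted p = 0.0529), Zfpm1 -0.44 (0.313) and Bcl11a -0.10 (0.344). Nfe2 and Tal1 did not pass the filter there. In a fit with no filter on low values Nfe2 had -0.50 (limma adjusted p = 0.0323) and Tal1 0.29 (0.0295) in CRS against Ctrl.

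Of 14 other genes used by red cells or their precursors 13 were in the tables, and Trim58 was listed at 0 throughout. Of 9 tested in CRS+IMQ against IMQ 2 rose and 2 fell, where 18.7% of all genes were called higher and 18.2% lower. Car2, carbonic anhydrase 2, had 6.26, 6.22 and 6.24 FPKM in CRS+IMQ and 1.87, 0.712 and 1.43 in IMQ (log2 change 1.66, limma adjusted p = 0.00131), and Epor, the erythropoietin receptor, rose by 0.70 (0.0111). Tfrc, the transferrin receptor, fell by 0.53 (limma adjusted p = 0.0233, up to 0.0858 under other settings). Of 8 tested in CRS against Ctrl 2 rose and 4 fell, where 15.3% of all genes were called higher and 28.4% lower, and the median of the 8 equalled that of all genes, -0.09. Bpgm, which makes the red cell's 2,3-bisphosphoglycerate, rose by 0.60 (limma adjusted p = 0.00638), whereas Bnip3l, a mitophagy receptor, fell by 0.81 (0.000806) and Epor by 1.12 (0.00396). Epor stayed under 1 FPKM in every CRS library and passed the filter only through Ctrl, so it could be tested only as lower in CRS. Car2, the other gene that rose, stayed under 1 FPKM in every Ctrl library and could be tested only as higher in CRS.

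Genes that take up, break down or store heme and iron were mostly called higher with stress in the presence of imiquimod and, where called, lower with stress in its absence. With imiquimod, CRS+IMQ against IMQ, 11 of 15 rose, 1 fell and 3 did not pass, where 18.7% of all genes were called higher and 18.2% lower, and the median log2 change was 0.81. Hmox1, heme oxygenase 1, had 216, 214 and 216 FPKM in CRS+IMQ and 27.3, 30 and 28.2 in IMQ (log2 change 2.87, limma adjusted p = 7.61e-06). Cd163, the macrophage receptor for haptoglobin-bound hemoglobin, had 31.3, 29.8 and 31.0 FPKM in CRS+IMQ and 4.26, 3.01 and 3.86 in IMQ (log2 change 2.76, limma adjusted p = 3.19e-05). Both stood far outside the spread between libraries, as did Hp, haptoglobin (log2 change 2.69, limma adjusted p = 1.12e-05). Slc40a1, the iron exporter ferroportin, was the 1 that fell, by 0.72 (limma adjusted p = 0.00371), and it was also lower in CRS than in Ctrl, by a log2 change of -0.54 (limma adjusted p = 0.0041). It was picked out after its values were seen.

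Without imiquimod, CRS against Ctrl, 8 of 14 genes of heme and iron handling fell, 0 rose and 6 did not pass, with a median of -0.44. Of all genes tested, 28.4% were called lower in that comparison. Hmox1 averaged 13.7 ± 0.421 FPKM in CRS and 67.2 ± 16.8 in Ctrl (SD, n = 3 each; log2 change -2.18, limma adjusted p = 0.000399). Cd163 fell by 2.78 (limma adjusted p = 0.000145) and Blvrb, a biliverdin reductase, by 1.13 (0.00136). The members, in the same libraries, were all higher in CRS than in Ctrl. In the interaction 11 of these 15 genes were called in the higher direction, beside 28.1% of all genes.

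**Figure D4:**
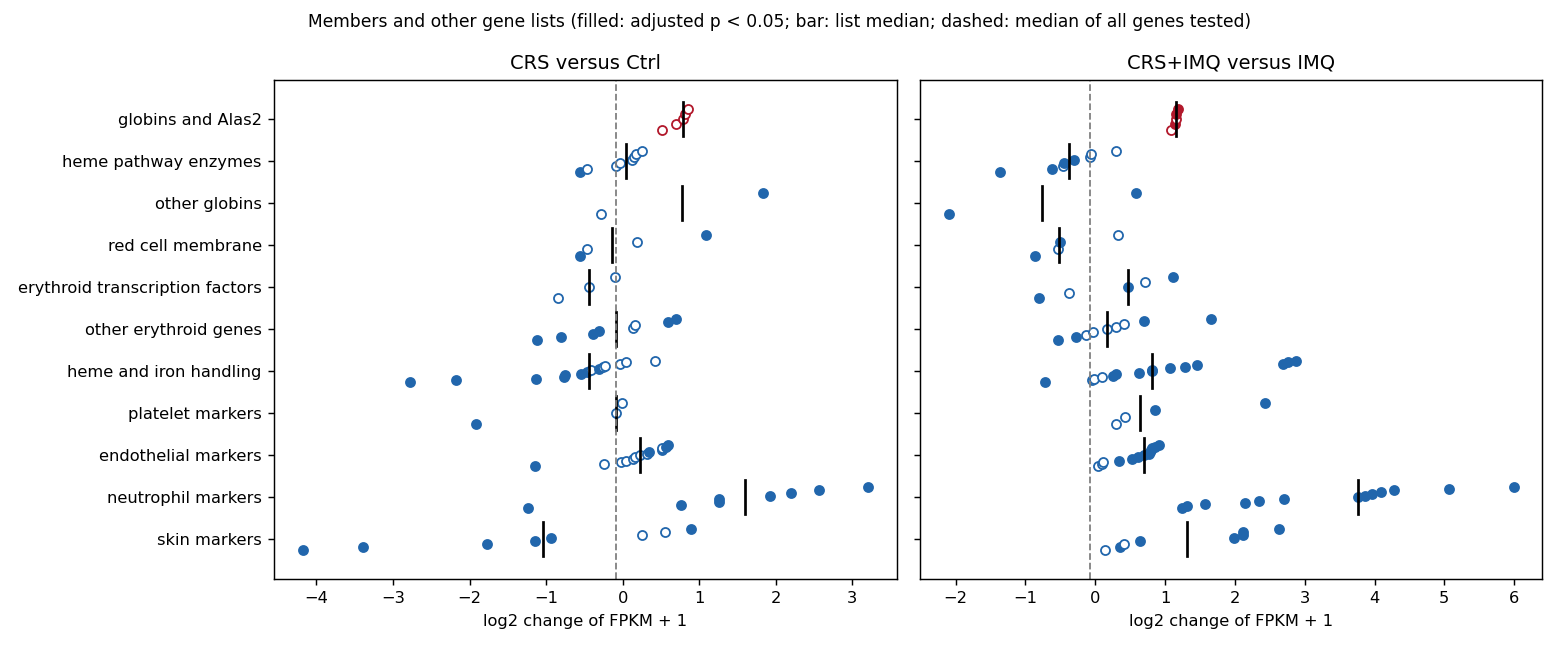
Log2 change of FPKM + 1 of the members and of the tested genes of 10 other lists in CRS versus Ctrl and in CRS+IMQ versus IMQ; filled points have an adjusted p under 0.05 (limma), short bars are list medians and the dashed line is the median of all genes. The members lie to the right in both panels, with medians of 0.79 and 1.16, while the list of heme and iron handling lies to the left in the first (-0.44) and to the right in the second (0.81).

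Blood carries other cells, and vessels carry it, so markers of both were read in the same libraries. Of 13 endothelial markers 10 rose and 0 fell in CRS+IMQ against IMQ, where 18.7% of all genes were called higher and 18.2% lower. In CRS against Ctrl 4 rose and 1 fell, where 15.3% of all genes were called higher and 28.4% lower. The summed level of the 13 markers was 291 to 306 FPKM in CRS+IMQ, 177 to 197 in IMQ, 151 to 160 in CRS and 107 to 138 in Ctrl. This was the same order of groups as the members. On their own 9 of the 13 genes had that order of group means, and its share over all genes was not counted. Plvap, of fenestrated vessels, rose by 0.81 in CRS+IMQ against IMQ (limma adjusted p = 0.000313) and by 0.60 in CRS against Ctrl (0.00432), and Tek fell by 1.14 in CRS against Ctrl (0.000528). None of these markers was at 0 in all libraries. Their part in the globin result was not tested.

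Neutrophil markers were mostly higher with stress, as the members were, but most did not share their order of groups. Of 13 listed, 13 rose in CRS+IMQ against IMQ, beside 18.7% of all genes, with a median log2 change of 3.76. In CRS against Ctrl 7 of 8 tested rose and 1 fell, where 15.3% of all genes were called higher and 28.4% lower. Some reached 1 FPKM only in the stressed group and could be tested only as higher there. Mmp8 did so with imiquimod and Ngp without it. The summed level of the 13 markers was 2799 to 2938 FPKM in CRS+IMQ, 23.0 to 293 in IMQ, 43.4 to 59.6 in CRS and 8.27 to 12 in Ctrl. In IMQ, replicate 2 was the lowest library both for this sum and for every member. S100a8 and S100a9 made up 90.7% to 91.8% of the sum in CRS+IMQ, 87.2% to 95.7% in IMQ, 63.0% to 64.2% in CRS and 43.7% to 56.3% in Ctrl. The other 11 markers summed to 236 to 273 FPKM in CRS+IMQ, 2.93 to 14.0 in IMQ, 16.1 to 21.9 in CRS and 4.66 to 5.49 in Ctrl, so that CRS lay above IMQ, the reverse of the members. The mean of 8 of the 13 was higher in CRS than in IMQ, and 3 of 13 had the members' order of group means. Of 7 tested in CRS against IMQ 2 rose, Camp by 1.40 (limma adjusted p = 0.0392) and Ltf by 0.94 (0.0405), and 0 fell. Of all genes 5.42% were called higher there. Ltf and Retnlg stayed under 1 FPKM in every IMQ library and passed the filter only through CRS. They could thus be tested only as higher in CRS, and the direction of these calls is not set against that of the members. Ltf was picked out after its values were seen. Retnlg rose by 6.00 (limma adjusted p = 1.94e-05) and Mmp8, a collagenase of neutrophil granules, by 4.09 (7.49e-06) in CRS+IMQ against IMQ. In CRS against Ctrl the granule gene Ngp rose by 3.21 (limma adjusted p = 0.000116) and Camp by 1.93 (0.000173). Their part in the globin result was not tested.

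Most platelet markers did not share the members' order of groups. Of 12, 1 had it, and the mean of 9 was higher in CRS than in IMQ. In CRS+IMQ the mean was the highest of the groups for all but Pf4, Gp1ba and Gp6. In CRS+IMQ against IMQ 2 of 4 tested rose and 0 fell, where 18.7% of all genes were called higher and 18.2% lower. In CRS against Ctrl 0 of 3 rose and 1 fell, where 15.3% of all genes were called higher and 28.4% lower. Of 12 markers 7, among them Gp9, Gp1ba and Gp5, stayed under 1 FPKM in all libraries, and Pf4 made up most of the sum. Pf4, platelet factor 4, which macrophages can also express, had 76.0, 78.8 and 77.8 FPKM in CRS+IMQ, 14.4, 15 and 11.5 in IMQ, 22.1, 20.6 and 20.6 in CRS, and 94.7, 75.7 and 78.1 in Ctrl. It was thus high in Ctrl, where every member was lowest. Pf4 rose by 2.43 in CRS+IMQ against IMQ (limma adjusted p = 3.96e-05) and fell by 1.92 in CRS against Ctrl (0.000147), and Ppbp rose by 0.85 in CRS+IMQ against IMQ (0.00804). Ppbp stayed under 1 FPKM in every IMQ library and passed the filter through CRS+IMQ alone. It could thus be tested only as higher there. Of the skin markers 6 of 8 rose and 0 fell in CRS+IMQ against IMQ, with Col3a1 at 2.63 (limma adjusted p = 0.000156). Of all genes 18.7% were called higher and 18.2% lower there. Of the same 8 skin markers in CRS against Ctrl 1 rose and 5 fell, with Krt10 at -4.18 (limma adjusted p = 0.00014). In that comparison 15.3% of all genes were called higher and 28.4% lower. The 8 keratin, desmoplakin and collagen markers of skin summed to 3124 FPKM or more in every library.

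**Figure D5:**
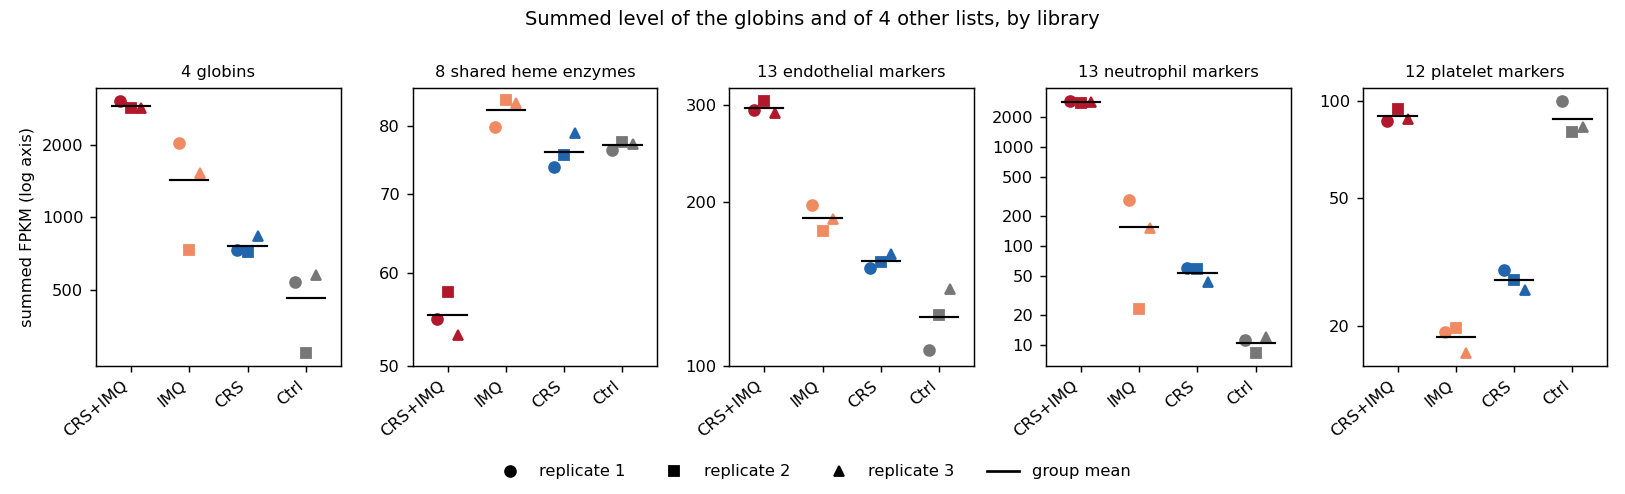
Summed FPKM per library (log axes) of the 4 globins, the 8 heme enzymes all tissues use, and the endothelial, neutrophil and platelet marker lists, by group, with the group mean as a bar. The globin and endothelial sums share their order of group means, as does the neutrophil sum, of which S100a8 and S100a9 make up 87.2% or more in both imiquimod groups, while the heme enzymes are lowest in CRS+IMQ (53.1 to 57.8 FPKM) and the platelet sum is high in CRS+IMQ and Ctrl.

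The genes whose pattern was most like that of the members were ranked over the 12 libraries, by Pearson correlation of log2 values with the mean of the 5 members, among 12508 genes. The highest were S100a8 (0.979), S100a9 (0.962), Hdlbp (0.961), H2-M9 (0.961), Vwf (0.959) and Emcn (0.958). S100a8 averaged 851 FPKM in CRS+IMQ, 69.7 in IMQ, 11.5 in CRS and 1.16 in Ctrl, and Vwf, von Willebrand factor, 10.9, 5.91, 3.79 and 3.36 FPKM in the same groups. On deviations from the group means the highest were Spock2 (0.967), Wfdc12 (0.967), Sfrp4 (0.965), Pi16 (0.948), Mgp (0.948) and Pamr1 (0.947). Spock2 averaged 3.47 FPKM in CRS+IMQ, 2.63 in IMQ, 3.54 in CRS and 2.86 in Ctrl, so its likeness lay within groups and not between them. Slc4a1 came to 0.931 over the 12 libraries. The libraries share groups and spread, and these correlations are descriptions without a test.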

How the data were processed

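Total RNA of dorsal skin was sequenced in 12 libraries. Per the submitters' processing notes, StringTie, edgeR and limma were used with the genome build mm10. An aligner is not given in the sources used here. FPKM as deposited by the authors were analysed, in 2 tables of the same genes, with 0.0001 standing for 0. Per the file headers, p-values, q-values, fold changes (as a ratio) and log2 fold changes of the authors stand beside them, for CRS against Ctrl in the first and CRS+IMQ against IMQ in the second. Counts were not used here, and the tables were joined without rescaling. Depth was estimated from the spacing of low FPKM values, searched between 10 and 30 M fragments. In each library 44.5% to 49.8% of those values came within 0.05 of a whole number of fragments.

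Tested genes reached 1 FPKM in 3 or more of the fitted libraries, on the scale log2(FPKM + 1), which understates changes of low genes. limma 3.58.1 (R 4.3.3, statmod 1.5.0) was run with robust empirical Bayes variances and a trend on the mean. Each pair was fitted on its own 6 libraries and the interaction on all 12. Tests were two-sided, and p-values were Benjamini-Hochberg adjusted over all genes tested and called under 0.05. A fold is the ratio of mean FPKM, first-named group over the second. The fit was tested on simulated data. The members and all gene lists were chosen with earlier results of these data known. From each list the text names the 3 tested genes with the smallest p in CRS against Ctrl and in CRS+IMQ against IMQ, the heme enzymes, and the 6 genes most like the members over 12 libraries and within groups; Slc4a1, Slc40a1, Ltf and genes named as absent fall outside that rule, and some genes that it covers are not reported here. The alternatives tried were another pseudocount, 2 other filters, 2 scalings, a replicate block, another variance model, all 12 libraries in 1 fit, each library left out, stressed groups as 1 sample each, and summed paralogs. Positions are those of GENCODE M21 (GRCm38), which matched 55141 of 55401 identifiers. Promoters are from RefSeq (GRCm38.p6), where all 5 members were matched.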

Additional observations from a re-analysis of the deposited data

How the results depend on the processing

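In every pair of groups the members kept their direction under all alternatives run, with log2 changes of 0.27 to 1.12 in CRS against Ctrl, 0.68 to 1.51 in CRS+IMQ against IMQ, 0.92 to 2.35 in IMQ against Ctrl, 1.34 to 2.32 in CRS+IMQ against CRS, 2.08 to 3.30 in CRS+IMQ against Ctrl and -1.53 to -0.33 in CRS against IMQ. The number of members called moved more. In CRS against Ctrl it was 0, against 4 after quantile normalization, 1 after median-ratio scaling and 0 to 3 with a library left out. In CRS+IMQ against IMQ it was 3, against 1 with no filter, 1 after quantile normalization, 1 after median-ratio scaling, 5 with all 12 libraries in the fit, 1 to 5 with a library left out and 0 with the stressed groups as 1 sample each. In IMQ against Ctrl it was 3, against 0 with no filter, 5 with all 12 libraries and 0 to 5 with a library left out. With the stressed groups as 1 sample each, 5 became 0 in CRS+IMQ against CRS and 1 in CRS+IMQ against Ctrl; that fit takes its spread from few samples. With a library left out 0 to 5 were called in CRS against IMQ and 0 to 1 in the interaction. The interaction of the globins changed sign after quantile normalization (Hba-a1 0.00, Hba-a2 -0.17, Hbb-bs -0.22, Hbb-bt -0.02). Without IMQ replicate 2 it changed sign for Hba-a2, Hbb-bs and Hbb-bt while Hba-a1 came to 0.06, and without Ctrl replicate 3 it changed sign for Hbb-bs. With a library left out it ran from -0.05 to 0.70 for Hba-a2, -0.18 to 0.60 for Hbb-bs and -0.11 to 0.70 for Hbb-bt. Alas2 could not be fitted against Ctrl with at least 1 FPKM required in every library. The cause of these shifts was not tested.

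Among other named genes, changes near 0 turned sign in CRS against Ctrl: after quantile normalization Bcl11a 0.00, Itgb3 0.05, Itga2b 0.10, Alad 0.12 and Ppox 0.16; after median-ratio scaling Itga2b 0.05, Alad 0.02 and Ppox 0.06. With a library left out the range was -0.05 to 0.04 for Itga2b, -0.16 to 0.02 for Itgb3, -0.15 to 0.06 for Ppox and -0.06 to 0.24 for Uros. In CRS+IMQ against IMQ it was -0.25 to 0.11 for Fech. Of 28 such genes called in CRS+IMQ against IMQ, 8 lost the call under at least 1 alternative (Uros, Ank1, Bcl11a, Tfrc, Urod, Ppox, Sptb and Tal1), among them Ank1 (limma adjusted p = 0.055) and Bcl11a (0.054) with no filter. Of 20 in CRS against Ctrl, Sptb and Gypc did. With the stressed groups as 1 sample each, 19 of the 28 and 11 of the 20 no longer passed.

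The share of all genes called in CRS against IMQ was 16.1%, against 5.45% with no filter, 7.71% with the replicate block, 5.71% to 25.6% with a library left out and 0.635% with the stressed groups as 1 sample each. For CRS+IMQ against Ctrl it was 37.7%, against 17.7% with no filter, 23.5% to 42.2% with a library left out and 6.5% with the stressed groups as 1 sample each. For CRS+IMQ against CRS it was 60.9%, against 31.2% and 7.53%, and in the interaction 49.3%, against 24.6% and 16.3%, with no filter and with the stressed groups as 1 sample each. It was 43.6% in CRS against Ctrl, against 19.9% with no filter, and 36.9% in CRS+IMQ against IMQ, against 16.2% with no filter and 21.4% to 43.4% with a library left out. In IMQ against Ctrl it was 19.6%, against 6.75% with no filter, 35.7% with all 12 libraries and 8.04% to 19.5% with a library left out. With the stressed groups as 1 sample each it was 6.01% in CRS against Ctrl and 5.87% in CRS+IMQ against IMQ. Of the calls in CRS against Ctrl, 35.0% were higher, against 56.2% after quantile normalization, where the median of all genes was 0.08 in place of -0.09, and 46.0% after median-ratio scaling. Of those in IMQ against Ctrl 31.2% were higher, against 44.1% after quantile normalization. In CRS+IMQ against CRS it was 57.5% against 43.2%, in CRS against IMQ 33.6% against 54.9% and in the interaction 57% against 43.2%, where the median was -0.13 in place of 0.04.

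The replicate numbers did not pair the libraries: deviations of libraries with the same number correlated between -0.13 and 0.04. With the replicate block 5 members were called in IMQ against Ctrl in place of 3, and in CRS+IMQ against IMQ Hba-a1 no longer passed (limma adjusted p = 0.0566).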
